A study of Vitis vinifera with 16 samples.

Results

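Akivi is a formulated extract of Dittrichia viscosa, a shrub of the daisy family, rich in polyphenols and terpenes, and the response of grapevine leaves to it was read from 8 of the 16 libraries of the series. The 4 libraries of leaves sprayed with Akivi (Aki) were set against the 4 of non-treated control leaves (NTC). These libraries were taken by the names of their columns, with no use of their values. A gene was tested when it reached 0.5 FPKM (fragments on a gene, scaled by its length and by the library's total) in at least 3 of the 8 libraries, and 19572 of the 30661 genes in the table did so. All libraries came from potted Vitis vinifera cv. Garnacha Blanca grafted on the rootstock 110R, and leaves were taken 24 h after spraying. Aki plants received Akivi at 0.521 g/L. BL plants received a lyophilized Bacillus preparation, BF plants a fresh Bacillus culture, and NTC plants no product according to the labels and water according to the study's methods. Each library pooled 2 leaves from each of 5 plants of 1 treatment, so replicates were pools and not single plants. The greenhouse blocks corresponded to the treatments, so an effect of the block and of the product cannot be told apart.

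Plant leaves meet microbes and plant extracts with an inducible defence. Receptors at the cell surface start signalling that runs through the hormones salicylic acid, jasmonic acid and ethylene, and transcription factors of the ERF, WRKY and NAC families pass it to genes for pathogenesis-related (PR) proteins, peroxidases and enzymes that make volatiles and phenolics. Salicylic acid acts in defence through NPR1, also called NIM1, and can be methylated to a volatile ester. Growth is often set against defence, and cyclins, the regulatory partners of the kinases that drive the cell cycle, are the usual transcripts read for division in young leaves. In such bulk tissue, fewer cells of a type and less RNA per cell cannot be told apart.

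The study chose 12 genes as markers of the Akivi response and designed qPCR primers for them. Since it chose them on these same samples, their rise here is not independent evidence. The primers of 4 of them are given because they identify the transcripts with the largest differences, a receptor kinase (A1), a transcription factor (A2) and a peroxidase (A6), and the enzyme of salicylic acid methylation (A8). They run 5′ to 3′, and the capitals mark the last 5 bases at the 3′ end, where the polymerase starts.
A1 forward: tgtgtcactgaggcaACCAA
A1 reverse: tcgtaccaaatgatcGCTCC
A2 forward: gcgagcttcaagcgcAATTA
A2 reverse: aggtttgcttgctggCATTG
A6 forward: cgcaaagtgtgctctGCAAT
A6 reverse: agtgcatgtgagaagttACGGA
A8 forward: gggacaccagttacgCAGAA
A8 reverse: ggtccagaagaacagCCCAA

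The 4 Aki libraries held 11078475 to 16330581 fragments on genes and the 4 NTC libraries 13078383 to 16124864. For a gene 1 kb long, 3 fragments in these libraries equal 0.184 to 0.271 FPKM, and lower values rest on very few fragments. Between 21766 and 22331 genes were above 0 in an Aki library, and between 21946 and 22240 in an NTC library. The study left out Aki replicate 1 and NTC replicate 3 after a principal component analysis of the same data, so the 6 retained libraries are not an independent choice, and counts are given with 8 and with 6 libraries, as are the values of single genes whose call differs between the sets.

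With all 8 libraries the response to Akivi was a set of raised genes. Of 19572 genes tested, 53 rose in Aki leaves (0.271%) and 0 fell (0%) with the bounds set at 0.05 for the adjusted p and 1.4 for the size of the log2 fold change (limma on log2 of FPKM + 0.1, Benjamini-Hochberg adjustment). The median log2 fold change among the 53 was 2.28 and the largest 3.61, while the median over all tested genes was 0.00 with a median standard error of 0.157. At the adjusted p alone, 90 genes were higher in Aki leaves (0.460%) and 14 lower (0.0715%), and the largest fall among those 14 was a log2 fold change of -1.38. At an unadjusted p under 0.05 there were 1181 genes higher and 848 lower in Aki leaves. In 676 genes (3.45%) the 4 Aki libraries all lay above the 4 NTC libraries, and in 428 (2.19%) all lay below them. All 53 raised genes were among these 676. Single libraries moved the count, to 106 raised genes without NTC replicate 3 and to 31 and 35 without Aki replicates 2 and 3.

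With the 6 retained libraries the response had both directions. Of 19256 genes tested, 175 rose in Aki leaves (0.909%) and 120 fell (0.623%), with a median log2 fold change of 1.93 among the raised and -1.71 among the lowered genes. At the adjusted p alone, 694 were higher in Aki leaves (3.60%) and 562 lower (2.92%). Of the 53 genes raised with 8 libraries, 52 were raised with 6 as well, and 123 further genes were raised with 6 only. The 120 lowered genes were all below 0 with 8 libraries too, with a median log2 fold change of -1.04, and 38 of them had an unadjusted p under 0.05 there. Since the 6 libraries are part of the 8, the shared calls and the shared sign are not independent agreement. On a scale where the mean of the retained NTC libraries is 0 and that of the retained Aki libraries is 1, NTC replicate 3 had a median position of 0.98 and Aki replicate 1 of 0.22 over the 120 lowered genes. For these genes each of the libraries left out lay nearer to the other treatment. The retained libraries chose the genes and also set the scale, so such positions of genes called with 6 libraries are a description. Over the 175 raised genes, Aki replicate 1 lay at 0.73 and NTC replicate 3 at 0.57, so NTC replicate 3 was nearer to Aki there too and Aki replicate 1 was on the side of its label. Over the 53 genes raised with 8 libraries the positions were 0.99 and 0.29, but those genes were called with both libraries included, which fixed that order. The lowered genes also rested on single retained libraries, numbering 25 without NTC replicate 4, 30 without NTC replicate 1 and 70 without Aki replicate 3. The raised numbered 105, 113 and 101 without the same libraries. Over all tested genes, deviations from the group mean correlated at 0.32 between Aki and NTC replicate 1, and at 0.40 between Aki and NTC replicate 3. Among the 6 libraries, replicate 1 comes from NTC only and replicate 3 from Aki only. For those libraries, replicate number and treatment cannot be told apart.

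Of the 12 Akivi markers, 10 rose with 8 libraries, against a background of 0.271% of tested genes, and all 12 rose with 6, against 0.909%. The median log2 fold change over the list was 2.38 with 8 libraries and 2.79 with 6, beside medians of 0.00 and -0.01 over all tested genes. The 4 Aki libraries lay above all 4 NTC libraries for each of the 12 markers. NTC replicate 3 was the highest NTC library for all 12 markers and for 36 of the 53 raised genes, against 30.0% of all tested genes. The part of that library in the smaller fold changes with 8 libraries was not tested.

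**Figure D1:**
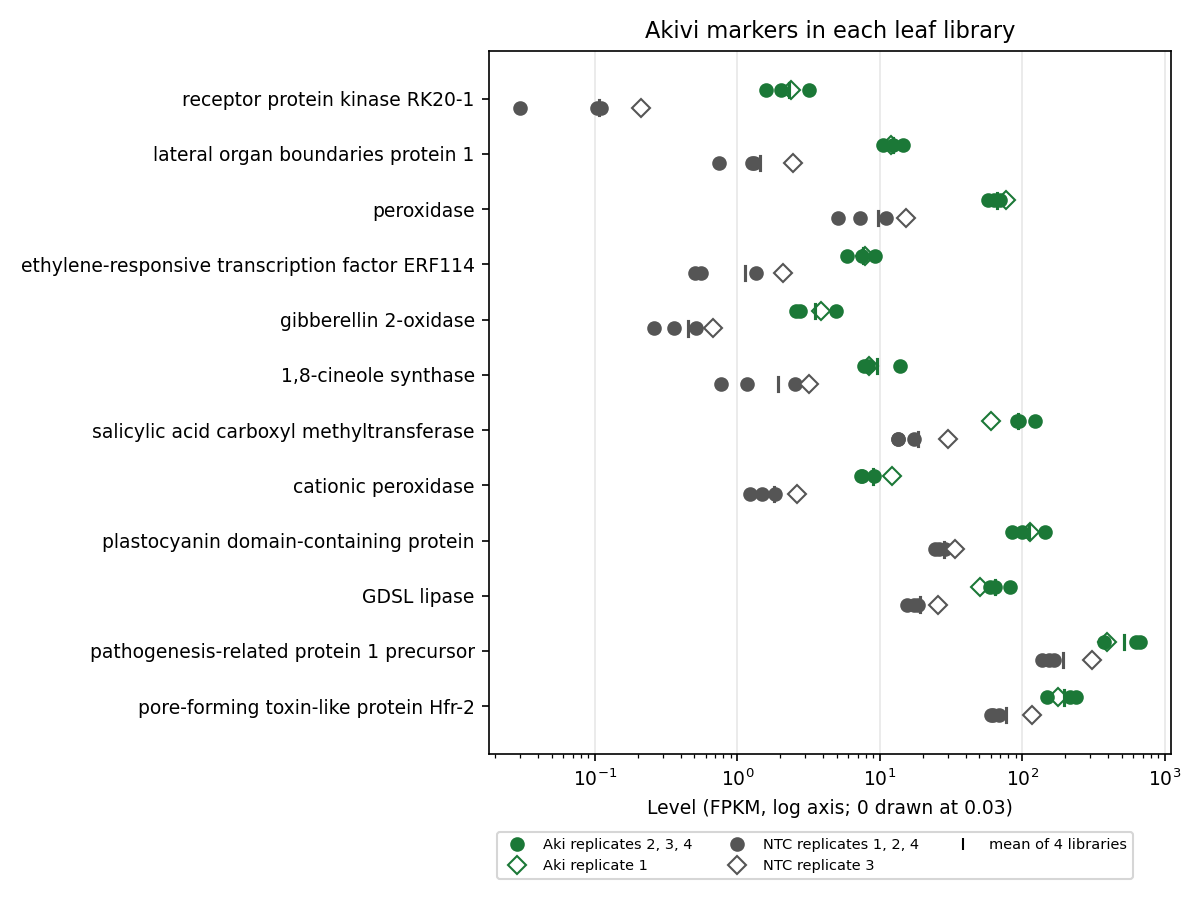
Level of each Akivi marker in FPKM (log axis) in every library, with Aki and NTC offset from each other and the libraries left out by the study drawn apart. The 4 Aki libraries have higher levels than the 4 NTC libraries for all 12 genes, and NTC replicate 3 is the highest NTC library for each of them.

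The largest rise with 8 libraries was in a receptor kinase. RK20-1 (VIT_12s0059g02600, marker A1) is annotated as a receptor protein kinase of the membrane. It had 2.40, 2.03, 3.20 and 1.6 FPKM in the Aki libraries, against 0, 0.111, 0.211 and 0.104 FPKM in the NTC libraries. The groups were far apart, but the NTC values rested on 8 fragments in all, against 184 in Aki leaves, a ratio of 22.9 with a 95% interval of 11.4 to 53.8 that covers counting error only. The log2 fold change was 3.61 ± 0.42 (SE, n = 4 each, limma adjusted p = 0.004). With 6 libraries it was 3.81, where the largest rise of any gene was 4.29.

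Both transcription factors among the markers and gibberellin 2-oxidase were low in NTC leaves, at 2.48 FPKM or less, and higher in every Aki library. Lateral organ boundaries protein 1 (VIT_06s0004g03350, A2) belongs to a plant family of transcription factors known for organ boundaries. It had 12, 12.3, 10.5 and 14.5 FPKM in Aki libraries, against 1.31, 0.746, 2.48 and 1.28 FPKM in NTC libraries, a log2 fold change of 3.10 ± 0.30 (limma adjusted p = 0.00209). ERF114 (VIT_17s0000g00200, A4), an ethylene-responsive transcription factor, had 7.90, 9.26, 7.54 and 5.88 FPKM in Aki libraries, against 0.560, 0.502, 2.09 and 1.35 FPKM in NTC libraries. Its log2 fold change was 2.85 ± 0.40 (limma adjusted p = 0.0124). Gibberellin 2-oxidase (VIT_05s0077g00520, A3) inactivates gibberellins, the hormones of stem and leaf growth. It had 3.87, 4.94, 2.58 and 2.75 FPKM in Aki libraries, against 0.261, 0.515, 0.672 and 0.361 FPKM in NTC libraries, with a log2 fold change of 2.73 ± 0.32 (limma adjusted p = 0.00423). None of these 3 genes overlapped between the groups, and NTC replicate 3 was the nearest to the Aki libraries in each.

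Salicylic acid carboxyl methyltransferase (VIT_04s0023g02240, A8) makes methyl salicylate, a volatile ester. It stood at 60.0, 124, 95.3 and 91.7 FPKM in Aki libraries, against 13.3, 13.3, 30.3 and 17.3 FPKM in NTC libraries. The lowest Aki library was replicate 1 and the highest NTC library replicate 3, and the groups still did not overlap. The log2 fold change was 2.35 ± 0.29 with 8 libraries (limma adjusted p = 0.00558) and 2.81 ± 0.15 with 6 (8.8e-05). The other volatile enzyme, 1,8-cineole synthase (VIT_00s0372g00040, A7), forms a monoterpene. It had 8.38, 13.8, 7.75 and 8.33 FPKM in Aki libraries, against 0.773, 2.56, 3.19 and 1.17 FPKM in NTC libraries, a log2 fold change of 2.41 ± 0.40 (limma adjusted p = 0.0360). Terpene synthases form a large family in grapevine with near-identical copies, and since fragments were counted only at unique places, values of this gene are uncertain.

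Both peroxidases, enzymes that use hydrogen peroxide to oxidise phenolics and crosslink cell walls, rose. Peroxidase VIT_12s0055g01010 (A6) had 76.4, 69.9, 57.5 and 63.6 FPKM in Aki libraries, against 5.05, 11, 15.3 and 7.29 FPKM in NTC libraries, a log2 fold change of 2.89 ± 0.29 (limma adjusted p = 0.00336). The cationic peroxidase VIT_08s0058g00970 (A5) was lower in level, with 12.1, 9.05, 7.46 and 7.38 FPKM in Aki libraries, against 1.5, 1.85, 2.63 and 1.23 FPKM in NTC libraries. Its log2 fold change was 2.28 ± 0.25 (limma adjusted p = 0.00355). In both genes Aki replicate 1 was the highest of the 8 libraries.

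The remaining markers were abundant in NTC leaves already and differed by less. The plastocyanin domain-containing protein (VIT_12s0034g01140, A9), of a copper protein fold, had 113, 145, 100.2 and 84.8 FPKM in Aki libraries, against 24.4, 28.6, 33.6 and 26.0 FPKM in NTC libraries. Its log2 fold change was 1.95 ± 0.16 (limma adjusted p = 0.00152). GDSL lipase (VIT_19s0090g00660, A10), of a lipase and esterase family, had 50.3, 81.6, 64.3 and 59.4 FPKM in Aki libraries, against 15.4, 18.5, 25.6 and 17.4 FPKM in NTC libraries, with a log2 fold change of 1.73 ± 0.18 (limma adjusted p = 0.0034). Both rose, and in both genes every Aki library lay above every NTC library.

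The most abundant markers, both linked to pathogen defence, did not pass with 8 libraries. Pathogenesis-related protein 1 precursor (VIT_03s0088g00810, A11), the classic transcript of salicylic acid responses, had 394, 629, 668 and 378 FPKM in Aki libraries, against 139, 153, 310.3 and 167 FPKM in NTC libraries. The log2 fold change was 1.46 ± 0.28 with 8 libraries (limma adjusted p = 0.0634) and 1.83 ± 0.21 with 6 (0.00363). Hfr-2 (VIT_07s0005g06090, A12), a pore-forming toxin-like protein known from wheat under attack by Hessian fly larvae, had 177, 239.6, 216 and 150.3 FPKM in Aki libraries, against 60.3, 62.1, 116 and 68.8 FPKM in NTC libraries. Its log2 fold change of 1.38 ± 0.22 passed the adjusted p (limma, 0.0276) but not the size, and reached 1.64 ± 0.17 with 6 libraries (0.00167). In both genes NTC replicate 3 was far above the other NTC libraries, and the groups did not overlap with it included.

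The raised genes set Aki apart from the Bacillus treatments as well as from NTC. In a model of all 16 libraries with 20246 genes tested, 293 genes were higher in Aki than in BL leaves (1.45%) and 287 higher than in BF leaves (1.42%). Of the 53 raised genes, 52 were higher in Aki than in BL leaves and 53 higher than in BF leaves, with median log2 differences of 3.23 and 3.46. These contrasts share the Aki libraries with the one that chose the genes, so they are a description. The 4 Aki libraries lay above all 12 other libraries for each of the 53 genes, as they did for 223 of the 20246 genes. The median over the 53 genes of the group mean was 9.57 FPKM in Aki, 1.10 FPKM in BL, 1.03 FPKM in BF and 1.87 FPKM in NTC leaves.

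**Figure D2:**
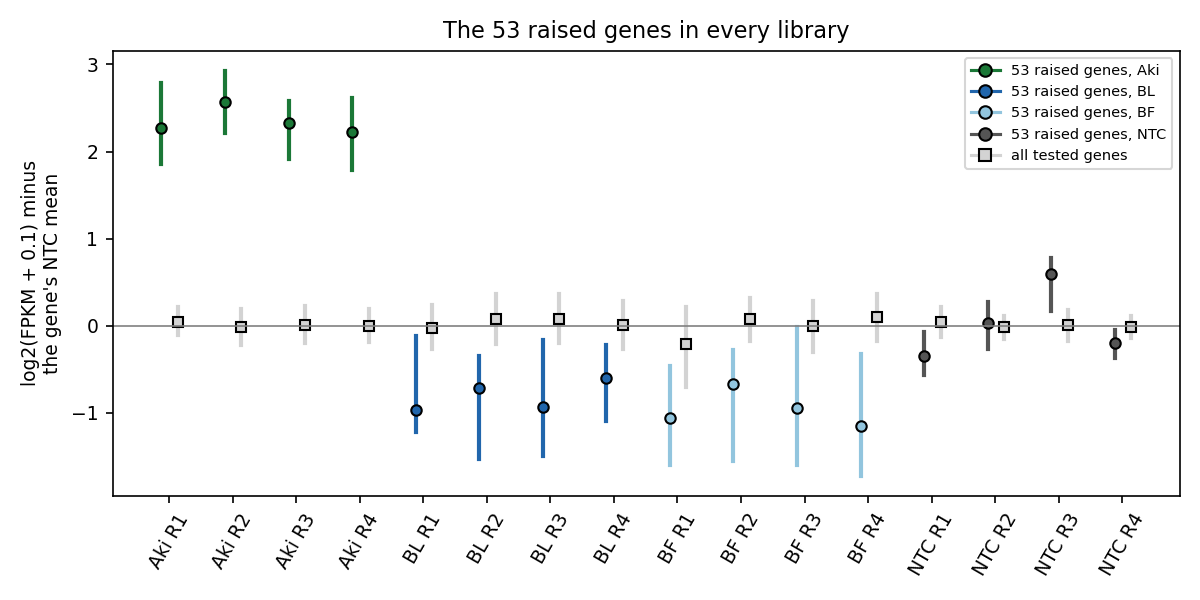
Difference on the log2(FPKM + 0.1) scale between each library and the NTC mean of the same gene, as the median (points) and quartiles (lines) over the 53 raised genes, with all tested genes as squares. The 4 Aki medians lie between 2.23 and 2.57, NTC replicate 3 is at 0.59, and the 8 Bacillus libraries lie between -1.15 and -0.60.

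Over the 53 genes the typical level in the Bacillus treatments was below that in NTC leaves. The median log2 fold change against NTC was -0.78 in BL and -1.04 in BF leaves, beside 0.03 and -0.03 over all tested genes. These comparisons share the NTC libraries with the one that chose the genes, and NTC replicate 3 was the highest NTC library for most of them. With that library left out of the NTC mean, the medians were -0.66 in BL and -0.97 in BF leaves.

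For single markers the difference from the Bacillus treatments was mostly larger than that from NTC. The 12 markers had a median log2 difference of 3.36 from BL and 3.78 from BF leaves, and 11 were called higher in Aki than in BL leaves and 12 higher than in BF leaves. The exception was PR1 against BL leaves, with a log2 difference of 1.29. Salicylic acid carboxyl methyltransferase (VIT_04s0023g02240) ranged from 4.44 to 8.61 FPKM in BL and from 3.22 to 9.39 FPKM in BF libraries, below every NTC library. Hfr-2 (VIT_07s0005g06090) ranged from 22.6 to 39.8 FPKM in BL and from 30.1 to 37.0 FPKM in BF libraries, again below every NTC library. PR1 (VIT_03s0088g00810) instead ranged from 151 to 276 FPKM in BL and from 146 to 189 FPKM in BF libraries, within the span of the NTC libraries.

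**Figure D3:**
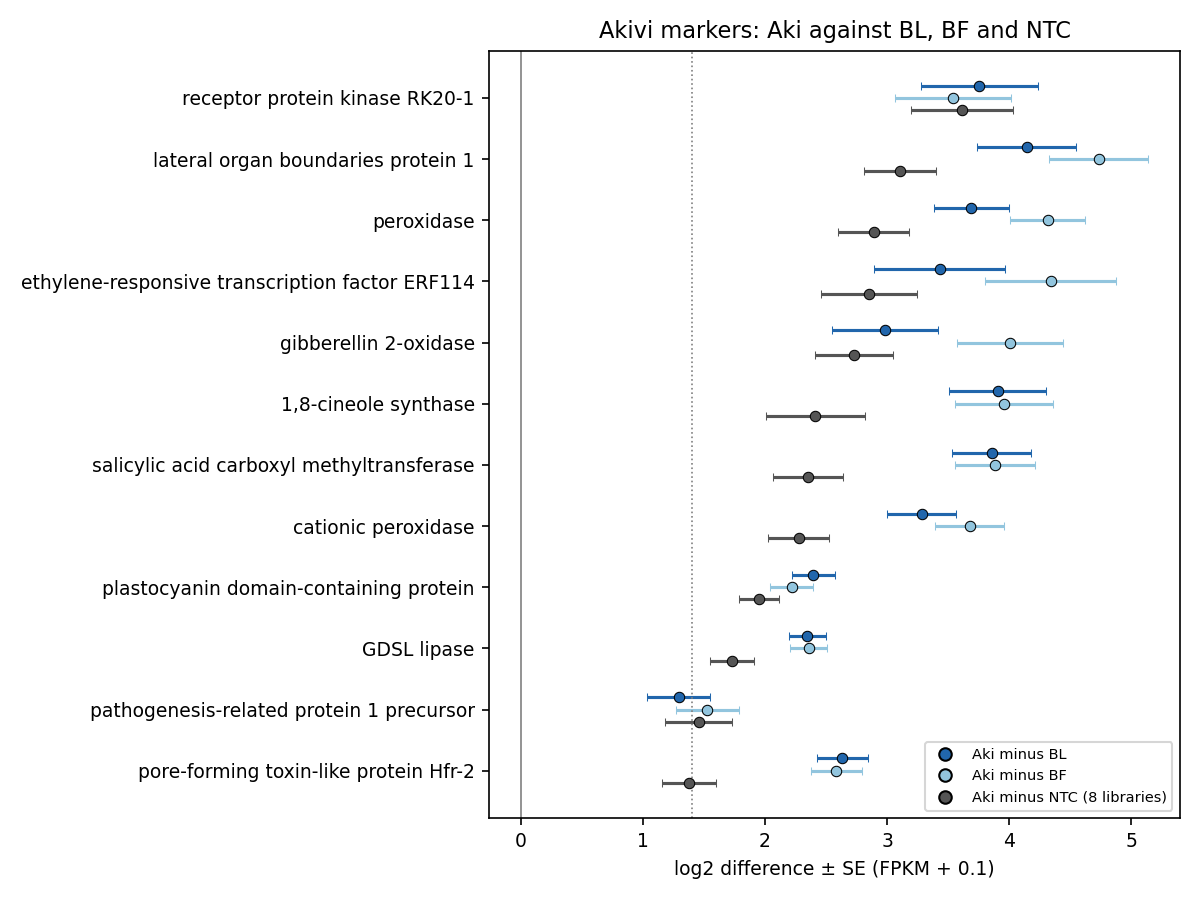
Log2 difference (± SE) of Aki from BL, BF and NTC leaves for the 12 Akivi markers, on the log2(FPKM + 0.1) scale, with a dotted line at 1.4. All 12 differ by more than 1.4 from BF leaves, 11 do so from BL leaves, and the differences from NTC lie between 1.38 and 3.61.

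The raised genes spanned a wide range of levels. Their median mean level was 5.74 FPKM over the 8 libraries, beside 9.78 FPKM for all tested genes. Of the 53, 12 were at 1 FPKM or less in every NTC library, and 21 were at 10 FPKM or more in every Aki library. A pair of raised genes with no name in the tables used here were chosen by level. VIT_19s0090g01360 had 2455, 4113, 3318 and 2987 FPKM in Aki libraries, against 456, 807, 1281 and 499 FPKM in NTC libraries, a log2 fold change of 2.18 ± 0.31 (limma adjusted p = 0.0136). VIT_05s0049g00740 had 268, 299, 222 and 253 FPKM in Aki libraries, against 19.3, 32.2, 48.3 and 22.5 FPKM in NTC libraries, with a log2 fold change of 3.17 ± 0.25 (limma adjusted p = 0.00138). In both the lowest Aki library was well above the highest NTC library, which was replicate 3.

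Identifiers of this annotation number the genes along each chromosome scaffold, and many raised genes stood next to another. Of the 53, 19 had another raised gene on the same scaffold within 100 numbers (35.8%), against 2.39% of the tested genes that had a raised gene so close. These 19 formed 7 runs. The longest was on chromosome 5, where 7 of the 10 genes tested between numbers 660 and 840 of scaffold 05s0049 rose, with log2 fold changes from 2.01 to 3.17. VIT_05s0049g00740 was one of them. Runs of 2 raised genes held the markers salicylic acid carboxyl methyltransferase on chromosome 4, lateral organ boundaries protein 1 on chromosome 6, the cationic peroxidase on chromosome 8 and the plastocyanin domain-containing protein on chromosome 12. Whether neighbours are near-identical copies was not tested, since no sequence of these genes was used here.

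The study named further genes for its treatments. Its lists were chosen on these samples as well, and over its 102 named genes 95 were tested with 8 libraries, where 10 rose and 0 fell, against 0.271% and 0% of all tested genes. All 10 were Akivi markers. With 6 libraries 89 were tested, 23 rose and 6 fell, against 0.909% and 0.623% of all tested genes. Of the study's stress genes for Akivi, 0 of the 9 it listed as raised and 0 of the 10 tested that it listed as lowered passed with 8 libraries, with median log2 fold changes of 1.29 and -0.92. With the 6 libraries on which it chose them, 9 of 9 rose and 6 of 10 fell, with medians of 1.76 and -1.65.

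**Figure D4:**
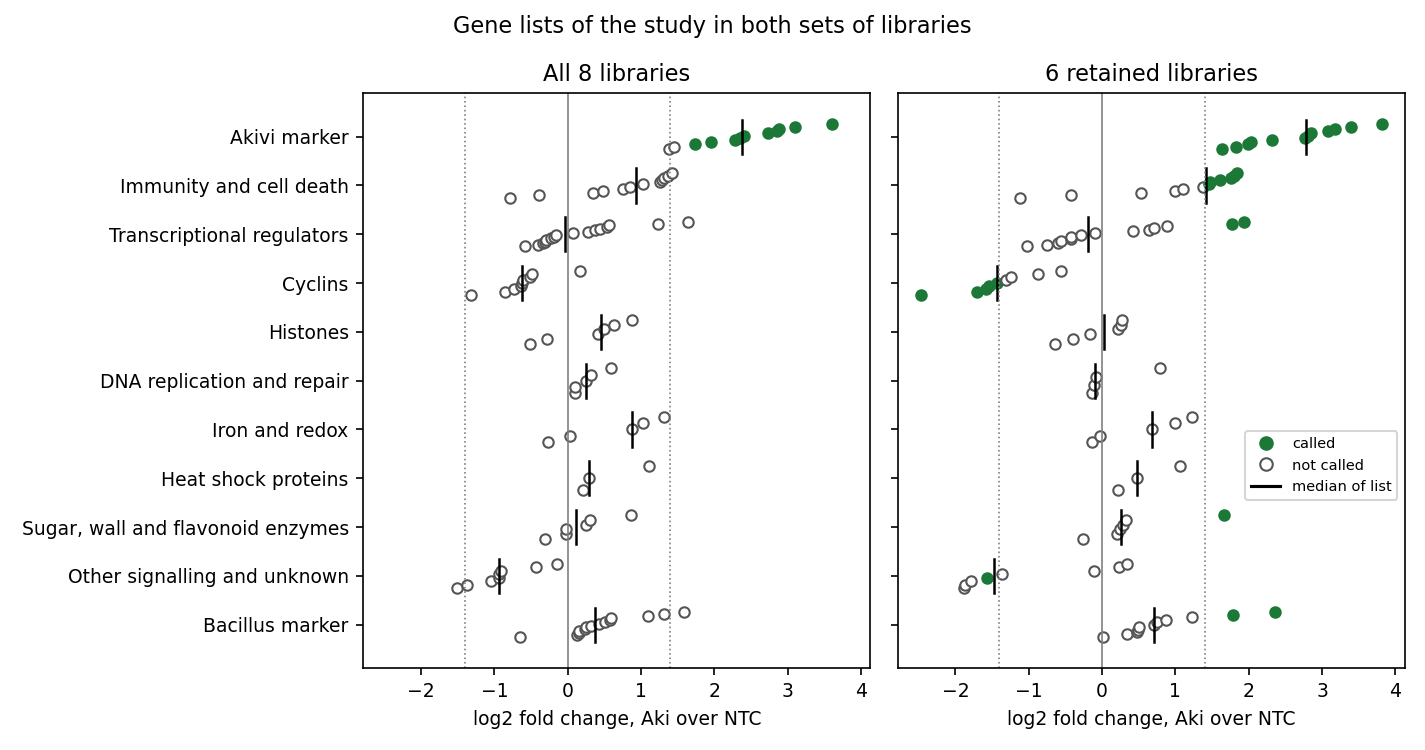
Log2 fold change of Aki over NTC leaves for the tested members of each list of the study, with all 8 libraries (left) and the 6 retained (right). Filled points passed the test, bars mark list medians and dotted lines the size threshold of 1.4. With 8 libraries only Akivi markers passed, and with 6 also 6 genes of immunity and cell death rose and 5 cyclins fell.

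The list of immunity and cell death had a median log2 fold change of 0.94 with 8 libraries, where 0 of 12 tested members passed in either direction. With 6 libraries the median was 1.42, and 6 of 12 rose and 0 fell, against 0.909% and 0.623% of all tested genes. The study listed these 6 as raised by Akivi on the same samples, so their number is not independent evidence. NIM1-interacting proteins bind the salicylic acid regulator NPR1 in Arabidopsis. VIT_07s0005g02070 of this family had 32.2, 71.0, 57.5 and 62.6 FPKM in Aki libraries, against 15, 19.0, 28.6 and 19.2 FPKM in NTC libraries, with a log2 fold change of 1.43 ± 0.26 with 8 libraries (limma adjusted p = 0.0506) and 1.84 ± 0.13 with 6 (0.000413). Its relative VIT_01s0011g03430 had 36.7, 73.2, 62.1 and 78.3 FPKM in Aki libraries, against 16.7, 23.2, 37.6 and 23.5 FPKM in NTC libraries, with log2 fold changes of 1.31 ± 0.28 with 8 libraries (adjusted p = 0.107) and 1.76 ± 0.15 with 6 (0.000791). The first did not overlap between groups and the second did, by Aki replicate 1 lying just under NTC replicate 3.

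Phytosulfokines are secreted peptide hormones of growth and immunity. The phytosulfokine VIT_18s0001g08760 had 57.3, 141, 112 and 85.5 FPKM in Aki libraries, against 23.7, 39.0, 55.1 and 34.5 FPKM in NTC libraries. Its log2 fold change was 1.36 ± 0.30 with 8 libraries (limma adjusted p = 0.120) and 1.80 ± 0.23 with 6 (0.00584). Necrotic spotted lesions 1 (VIT_01s0011g05950), which restrains cell death in Arabidopsis, had 1.39, 2.26, 2.46 and 3.02 FPKM in Aki libraries, against 0.518, 0.918, 1.06 and 0.969 FPKM in NTC libraries, with a log2 fold change of 1.29 ± 0.31 with 8 libraries (adjusted p = 0.148) and 1.6 ± 0.31 with 6 (0.0205). Neither gene overlapped between groups, with Aki replicate 1 the lowest Aki library of both. An ankyrin repeat protein (VIT_14s0081g00370) and PR-10 (VIT_05s0077g01600), a PR protein of the cytoplasm, also rose with 6 libraries, with log2 fold changes of 1.46 and 1.47, while those with 8 libraries were 1.26 and 1.03 and did not pass. DIR1 (VIT_00s0333g00050), a lipid transfer protein of systemic resistance in Arabidopsis, was the most abundant member, at 392, 424, 375 and 248 FPKM in Aki libraries, against 389, 533, 474 and 464 FPKM in NTC libraries, with a log2 fold change of -0.39 ± 0.17 (limma adjusted p = 0.458).

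Over the 6 immunity genes raised with 6 libraries, Aki replicate 1 had a median position of 0.47 and NTC replicate 3 of 0.46 between the means of the retained NTC and Aki libraries. Both medians stood about midway, with ranges of 0.37 to 1.01 for Aki replicate 1 and 0.25 to 0.57 for NTC replicate 3. For the Akivi markers, Aki replicate 1 was nearer to Aki in 12 of 12 and NTC replicate 3 nearer to NTC in 10 of 12. The immunity genes were called only without these libraries and most markers also with them, so the calls in part fixed this contrast.

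Cyclins passed as lower in Aki leaves with 6 libraries only, while most were below 0 with 8 as well. With 8, 0 of 9 tested cyclins passed in either direction, 8 of 9 were below 0, and the median log2 fold change was -0.62. With 6, 5 of 9 fell, against 0.623% of all tested genes, and 0 rose, with a median of -1.43, beside -0.01 over all tested genes. The study listed these 5 as lowered by Akivi on the same samples, so their number is not independent evidence. The count of lowered cyclins was 0 without NTC replicate 1 or NTC replicate 4 and 1 without Aki replicate 3. Cyclin D3_2 (VIT_03s0180g00040) is of the D type, which responds to growth signals at entry into the cell cycle. It had 31.4, 11.5, 4.85 and 10.5 FPKM in Aki libraries, against 70.6, 27.0, 6.97 and 54.6 FPKM in NTC libraries, with a log2 fold change of -1.32 ± 0.73 with 8 libraries (limma adjusted p = 0.575) and -2.47 ± 0.42 with 6 (0.0180). B-type cyclins act at mitosis, and VIT_08s0040g00930 of this type had 13.4, 6.59, 4.01 and 6.68 FPKM in Aki libraries, against 20.0, 12.1, 4.02 and 18.7 FPKM in NTC libraries, with -0.73 ± 0.51 with 8 libraries (adjusted p = 0.646) and -1.55 ± 0.25 with 6 (0.0121). In both genes NTC replicate 3 was the lowest NTC library and Aki replicate 1 the highest Aki library, so the groups of 4 overlapped.

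That order held across the list. Aki replicate 1 was the highest Aki library for all 10 cyclins, and NTC replicate 3 the lowest NTC library for 9 of 10, against 34.5% and 30.4% of all tested genes. Over the 5 cyclins that fell with 6 libraries, Aki replicate 1 lay at -0.09 to 0.23 and NTC replicate 3 at 1.11 to 1.54 between the retained NTC and Aki means. The 10 cyclins summed to 137.5, 65.3, 36.1 and 62.9 FPKM in Aki libraries, against 194.1, 105.5, 45.2 and 177.8 FPKM in NTC libraries. In both groups replicate 1 had the highest sum and replicate 3 the lowest. The BL libraries summed to 38.3 to 63.5 FPKM and the BF libraries to 39.0 to 87.8 FPKM. Against the Bacillus treatments, 1 cyclin was called higher in Aki than in BL leaves and 0 differed from BF leaves, with medians of 0.83 and 0.66. The study chose part of these cyclins for their fall in the same BL or BF libraries. That choice favoured a higher level in Aki for them, so the medians are a description. CYCB1_2 (VIT_06s0009g02090) was too low to be tested, with 12 fragments in Aki leaves and 40 in NTC leaves, a ratio of 0.299 with a 95% counting interval of 0.143 to 0.580.

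**Figure D5:**
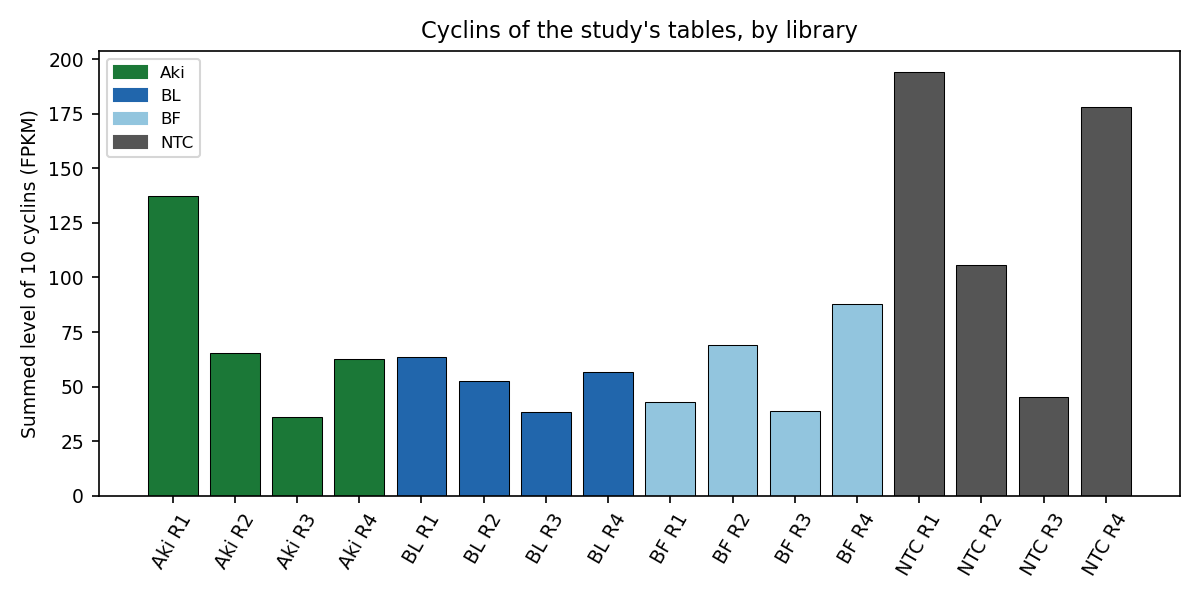
Summed level in FPKM of the 10 cyclins named by the study, 1 bar per library. Aki replicate 1 (137.5) is the highest Aki library and NTC replicate 3 (45.2) the lowest NTC library, and the other 3 Aki libraries lie below the other 3 NTC libraries.

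The histones and the genes of DNA replication and repair that the study named gave no calls. The study listed them for its Bacillus treatments, the histones as lowered in BL leaves, so they are not all such genes of the leaf. Of 6 histones, 0 passed with either set of libraries, and their median log2 fold change was 0.45 with 8 libraries and 0.03 with 6. Histone H1 (VIT_14s0081g00500), a linker histone and the most abundant member, had 504, 571, 457 and 328 FPKM in Aki libraries, against 626, 734, 555 and 711 FPKM in NTC libraries, with a log2 fold change of -0.52 ± 0.17 with 8 libraries (limma adjusted p = 0.301) and -0.64 ± 0.18 with 6 (0.0782). Its groups of 4 overlapped and the retained libraries did not. As with the cyclins, the mean log2(FPKM + 0.1) over the 6 histones was highest among Aki libraries in replicate 1, at 6.91, and lowest among NTC libraries in replicate 3, at 5.60. Of the genes of DNA replication and repair, 0 of 5 tested passed with 8 libraries, with a median of 0.25, and 0 of 4 with 6.

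Among the transcriptional regulators, 0 of 16 passed with 8 libraries and 2 of 14 rose with 6, against 0.909% of all tested genes. The list medians were -0.04 and -0.20. The study listed the 2 genes that rose as raised by Akivi on the same samples. A C2H2 zinc finger protein (VIT_13s0019g00480), of a family of DNA-binding factors, had 3.8, 5.24, 5.45 and 6.73 FPKM in Aki libraries, against 0.800, 2.76, 2.25 and 1.29 FPKM in NTC libraries, with a log2 fold change of 1.64 ± 0.35 with 8 libraries (limma adjusted p = 0.108) and 1.94 ± 0.39 with 6 (0.0251). Salt tolerance homolog 2 (VIT_03s0038g00340), a B-box factor of light signalling in Arabidopsis, had 6.13, 9.95, 10.3 and 11.8 FPKM in Aki libraries, against 2.05, 4.00, 7.86 and 3.47 FPKM in NTC libraries, with 1.24 ± 0.36 with 8 libraries (adjusted p = 0.257) and 1.77 ± 0.24 with 6 (0.00539). The zinc finger gene did not overlap between groups, and the other did.

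The lists of iron and redox, heat shock, and sugar, wall and flavonoid genes had 1 call between them. It was a rise with 6 libraries, where 0.909% of all tested genes rose. Catalase (VIT_00s0698g00010), the most abundant member of the iron and redox list, had 51.1, 58.4, 83.9 and 34.2 FPKM in Aki libraries. It had 68.9, 50.7, 81.9 and 63.1 FPKM in NTC libraries, a log2 fold change of -0.27 ± 0.25 (limma adjusted p = 0.745). It was the 1 member of 5 below 0 with 8 libraries. Ferritins store iron, and VIT_08s0058g00430 had the largest rise of that list. It had 30.3, 32.9, 12.4 and 41.5 FPKM in Aki libraries, against 5.60, 24.8, 10.1 and 9.39 FPKM in NTC libraries. Its log2 fold change was 1.31 ± 0.47 (limma adjusted p = 0.342) with overlapping groups. A small heat shock protein (VIT_00s0992g00020), the most abundant chaperone of its list, had a log2 fold change of 0.30 ± 0.14 with 8 libraries (adjusted p = 0.496) and 0.48 ± 0.12 with 6 (0.0490), below the size threshold. Leucoanthocyanidin dioxygenase (VIT_13s0067g01020), an enzyme of anthocyanin synthesis, rose with 6 libraries. It had 0.575, 0.965, 2.29 and 1.34 FPKM in Aki libraries, against 0.387, 0.340, 1.81 and 0.445 FPKM in NTC libraries, with 0.87 ± 0.55 with 8 libraries (adjusted p = 0.610) and 1.66 ± 0.40 with 6 (0.0436). These levels are low, and NTC replicate 3 lay above 3 of the 4 Aki libraries.

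Among the other signalling and unknown genes of the study, calls were few but most values were below 0. With 8 libraries 0 of 8 tested passed, all 8 were below 0, and the median log2 fold change was -0.93. With 6 libraries 1 of 8 fell, against 0.623% of all tested genes, with a median of -1.47. The study listed several of them as lowered by Akivi on the same samples, so the shared sign is not independent evidence. A receptor protein kinase (VIT_05s0020g01690) had 1.49, 0.585, 0.437 and 0.366 FPKM in Aki libraries, against 1.25, 1.44, 0.705 and 2.08 FPKM in NTC libraries, with a log2 fold change of -0.93 ± 0.45 with 8 libraries (limma adjusted p = 0.512) and -1.57 ± 0.35 with 6 (0.0349). Annexin ANN4 (VIT_00s0131g00080), of a family of calcium-dependent membrane-binding proteins, had 0.932, 0.195, 0.928 and 0.408 FPKM in Aki libraries, against 1.34, 2.65, 1.26 and 1.85 FPKM in NTC libraries. It did not overlap between groups, but did not pass, with -1.51 ± 0.45 with 8 libraries (adjusted p = 0.258) and -1.88 ± 0.49 with 6 (0.0565). The kinase VIT_05s0020g01690 passed with 6 libraries although Aki replicate 1, left out there, was above 3 of the 4 NTC libraries. PERK1 (VIT_01s0127g00670), an extensin-like receptor kinase at 0.648 FPKM or less, had -1.37 ± 0.49 with 8 libraries (limma adjusted p = 0.346). It had -1.87 ± 0.54 with 6 (0.0743). The unknown genes VIT_04s0008g04200 and VIT_04s0023g03760 had -1.05 and -0.91 with 8 libraries and -1.79 and -1.37 with 6, and did not pass.

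A pair of lowered genes with no name in the tables used here were chosen by level. They were taken from genes lowered with 6 libraries whose Aki libraries, with all 8 included, lay below every NTC library. VIT_03s0038g03860 had 114, 89.6, 77.9 and 90.0 FPKM in Aki libraries, against 224, 217, 184 and 257 FPKM in NTC libraries, with a log2 fold change of -1.25 ± 0.14 with 8 libraries (limma adjusted p = 0.00355) and -1.44 ± 0.11 with 6 (0.000438). VIT_11s0016g02920 had 8.33, 5.92, 5.50 and 6.69 FPKM in Aki libraries, against 20.4, 16.1, 15.4 and 16.9 FPKM in NTC libraries, with -1.38 ± 0.15 with 8 libraries (adjusted p = 0.0034) and -1.54 ± 0.14 with 6 (0.000913). The choice fixed the call with 6 libraries and the lack of overlap with 8. Both genes were among the 14 lower at the adjusted p alone, and missed only the size threshold with 8 libraries.

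The markers that the study chose for its Bacillus treatments were mostly not called between Aki and NTC leaves. Of 15, 14 were tested against NTC with 8 libraries and 0 passed in either direction, with a median log2 fold change of 0.37. With 6 libraries 2 of 11 rose, against 0.909% of all tested genes. A constans-like gene with a CCT motif (VIT_06s0004g07210) had 0.778, 2.94, 2.04 and 2.51 FPKM in Aki libraries, against 0.207, 0.701, 1.33 and 0.417 FPKM in NTC libraries, with a log2 fold change of 1.59 ± 0.53 with 8 libraries (limma adjusted p = 0.321) and 2.35 ± 0.40 with 6 (0.0134). It reached 13.1 to 22.1 FPKM in BL and 13.2 to 36.2 FPKM in BF libraries, above every Aki library. A NAC domain gene (VIT_07s0031g02610) of the stress-related transcription factor family was the other. It had 9.98, 12.9, 33.9 and 31.7 FPKM in Aki libraries, against 5.12, 9.38, 19.4 and 6.86 FPKM in NTC libraries, with a log2 fold change of 1.10 ± 0.49 with 8 libraries (adjusted p = 0.477) and 1.78 ± 0.38 with 6 (0.0375). Both genes overlapped between the Aki and NTC groups. Over the list, 12 genes were lower in Aki than in BL leaves, where 0.924% of tested genes were, and 11 lower than in BF leaves, where 0.800% were. The study chose these genes for their change in the same BL and BF libraries, which fixed that direction.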

How the data were processed

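RNA of 16 leaf pools (4 per treatment) was sequenced by the authors from strand-specific mRNA libraries. Per the labels and the study's methods, base calls came from CASAVA 1.8.2, reads were checked with FastQC 0.10.1, trimmed with BBDuk, aligned with STAR 2.6 to the 12X PN40024 genome and counted with featureCounts 1.6.1 at a mapping quality of 30 or more, so near-identical genes are uncertain. The deposited values are FPKM that the authors computed with edgeR, and whether a library scaling entered them is not given in the sources used here. Whole fragments were rebuilt from these values for 25310 of the 25310 genes above 0 (relative tolerance 2e-13), which gave the depths. The scale between libraries recovered in that step followed their totals of fragments on genes, so no further library scaling showed in the values.

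FPKM are not counts, so log2(FPKM + 0.1) was tested with limma 3.58.1 (R 4.3.3; trend, robust), with Benjamini-Hochberg adjustment over all genes tested. Thresholds were 0.05 for the adjusted p and 1.4 for the size of the log2 fold change, which on this scale understates low genes. Aki and NTC alone entered the main comparison, and all 16 libraries the comparisons with BL and BF. Nothing says that the pools were independent beyond their plants, so p-values measure the spread between them.

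The members and lists were chosen with earlier results of these data known. Named were the study's Akivi markers and stress genes, the 12 largest named rises and falls whose 4 Aki libraries lay on 1 side of NTC (filled from the 6-library comparison), up to 4 called members of each list or else its most abundant one, and 2 unnamed identifiers per direction. The reference table matched 0 of the identifiers in the deposited table, so 102 names came from the study's tables, and the lists by product name and the planned check of leaf and dividing-cell markers could not be made. Alternatives were other sets of libraries, pseudocounts, filters, thresholds and scalings, a replicate block and, added after seeing the data, voom on the rebuilt fragments.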

Additional observations from a re-analysis of the deposited data

Results flagged for a closer look

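In 84 groups of 4 libraries, 4 held a library far from the other 3 by Dixon's criterion. Chance gives about 1 group in 20, or 4.2 of 84, if the groups are independent. These groups are genes of the same 8 libraries and are not independent, so the count is a description. In all but the first gene below, the library that stood apart was NTC replicate 3. For 1,8-cineole synthase, Aki replicate 2 had 13.8 FPKM and the other Aki libraries 7.75 to 8.38 FPKM. For PR1, NTC replicate 3 had 310.3 FPKM and the other NTC libraries 139 to 167 FPKM. For Hfr-2, NTC replicate 3 had 116 FPKM and the others 60.3 to 68.8 FPKM. For leucoanthocyanidin dioxygenase, NTC replicate 3 had 1.81 FPKM and the others 0.340 to 0.445 FPKM.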

How the results depend on the processing

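The counts changed with the libraries that entered. The 53 raised genes became 175 and the 0 lowered genes 120 with the 6 retained libraries. Leaving out 1 library of 8 gave 31 to 106 raised genes (31 without Aki replicate 2, 35 without Aki replicate 3, 106 without NTC replicate 3) and 0 to 6 lowered. Lowered genes numbered 1 in the model of 16 libraries, 2 without a filter, 6 at a threshold of 1 and 0 with voom. At the adjusted p alone 90 were raised and 14 lowered. Of the 53, 42 were raised again with a pseudocount of 1 FPKM, 51 after median-of-ratios rescaling, 50 after quantile normalization and 50 with voom. The Akivi markers raised numbered 8 to 12 with 8 libraries and 9 to 12 with 6 over all alternatives.

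With 6 libraries, leaving out 1 gave 101 to 225 raised genes (101 without Aki replicate 3, 113 without NTC replicate 1, 105 without NTC replicate 4) and 25 to 164 lowered (70, 30 and 25 without the same libraries). A pseudocount of 1 FPKM gave 99 raised and 48 lowered, and the adjusted p alone 694 and 562. The cyclins lowered with 6 libraries numbered 0 without NTC replicate 1 or NTC replicate 4, 1 without Aki replicate 3 and 2 with a pseudocount of 1 FPKM. The causes were not tested. The scalings moved the median of all genes by 0.01 or less.

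Replicate numbers were not taken as pairs, since the labels tie them to no shared batch and the deviations of same-numbered Aki and NTC libraries correlated at 0.32, 0.15, 0.40 and -0.03, not over 0.1 in every pair. In 3 of 4 Aki libraries the best correlation was with the own number, a hint from the data and not from the design. With the replicate block, 81 genes were raised, the 53 among them, and 3 lowered with 8 libraries, with 0 cyclins lowered. With 6 libraries and the block over numbers 2 and 4, 79 were raised, 24 lowered and 0 cyclins fell. Over 41 single genes no direction reversed under any alternative, and 793 values kept their call, 14 lost it and 48 gained it.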
